A study of Mus musculus with 6 samples.

Results

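TRiC, also called CCT, is the chaperonin of the eukaryotic cytosol, and the genes of its 8 subunits are described here in B16F10 cells, an established and pigmented mouse melanoma line. The members were fixed by name (Tcp1, Cct2, Cct3, Cct4, Cct5, Cct6a, Cct7 and Cct8) and found by gene symbol in the annotation of the array platform. That annotation gave 7 of the 8 a feature with exactly 1 gene symbol, 1 each, among 19505 genes, and Cct6a was not analysed here. Expression was measured on single-colour Affymetrix arrays in 3 groups of 2 arrays. All cells were maintained in RPMI1640. For 48 h they then received either medium alone (control) or a compound, SQ-diEG in the series title and di-sq in the sample labels, at a dose of 2.5 µM or 40 µM. Whether the paired arrays of a group are separate cultures is not stated, so p-values measure only the spread between these arrays, which may be technical.

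The chaperonin is a barrel of stacked rings, and each ring holds 1 copy of each of the 8 subunits, so that a working complex needs all of them. Newly made actin and tubulin enter its cavity and fold there during a cycle of ATP binding and hydrolysis, as do several proteins with WD40 repeats. Prefoldin hands unfolded actin and tubulin to the chaperonin, phosducin-like proteins bind it as cofactors, and the tubulin folding cofactors take up tubulin after release. In dividing tumour cells such as melanoma the complex supplies the cytoskeleton and regulators of mitosis, and heat shock factors are among the known regulators of its genes.

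The RefSeq promoter table (build GRCm38.p6) held a window from 250 bases before to 50 bases after the start for 7 of the 8 genes, all but Cct4, with 9 start sites in all. The 150 bases before the outermost start are shown for 5 genes, read 5′ to 3′ on the gene's strand. Tcp1, Cct2 and Cct8 are shown as examples of the genes high together on an array at 40 µM. Cct5 is shown because it varied least, and Cct7 because it lay in the opposite direction. On that array Cct3 and Cct4 were high too, 1.36 and 1.18 above the control mean. Cct3 is not shown, and Cct4 had no window. Capitals mark matches, on either strand, to the motifs searched.
Tcp1, chr17:12916179-12916328, plus strand: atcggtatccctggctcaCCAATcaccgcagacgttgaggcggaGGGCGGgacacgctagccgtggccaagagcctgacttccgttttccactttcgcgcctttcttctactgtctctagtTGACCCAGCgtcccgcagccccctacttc
Cct2, chr10:117063853-117064002, minus strand: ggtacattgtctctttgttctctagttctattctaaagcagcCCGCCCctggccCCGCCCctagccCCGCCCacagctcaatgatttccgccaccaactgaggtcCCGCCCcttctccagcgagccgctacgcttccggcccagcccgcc
Cct5, chr15:31601847-31601996, minus strand: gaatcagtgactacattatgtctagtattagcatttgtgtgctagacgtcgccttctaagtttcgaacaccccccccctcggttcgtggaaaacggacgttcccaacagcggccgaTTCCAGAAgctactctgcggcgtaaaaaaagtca
Cct7, chr6:85451355-85451504, plus strand: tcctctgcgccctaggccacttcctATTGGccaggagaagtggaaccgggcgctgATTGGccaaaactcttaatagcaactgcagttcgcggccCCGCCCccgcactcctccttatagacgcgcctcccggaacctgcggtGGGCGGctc
Cct8, chr16:87495870-87496019, minus strand: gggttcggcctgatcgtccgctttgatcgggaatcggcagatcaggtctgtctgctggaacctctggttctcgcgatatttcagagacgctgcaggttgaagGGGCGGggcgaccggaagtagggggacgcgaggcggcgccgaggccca

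The motifs were the GC box (GGGCGG), the CCAAT box (CCAAT), the core of the antioxidant response element (TGACNNNGC) and the E box (CACGTG). Short patterns of the heat shock element, with 2 GAA units in either arrangement (GAANNTTC and TTCNNGAA), were searched too. Both strands were used, and no match overlapped another. Each of the 7 genes had a GC box, in 8 of 9 windows, where 35.7% of all 32851 windows had one. The 9 windows include 2 each of Cct2 and Cct5. The 250 bases before these starts were 45.2% to 66.8% G and C, where the median of all windows was 52.4%. The shares were not adjusted for this. A CCAAT box was found in Cct3, Cct6a, Cct7 and Tcp1 (4 of 9 windows, 37.4% of all), and Cct7 had 3 of them in its window. The short heat shock pattern GAANNTTC was present at an inner start of Cct2 (1 of 9 windows, 7.86% of all). The pattern TTCNNGAA was present in Cct5 and Cct6a (2 of 9, 8.52% of all). The antioxidant core was present in Tcp1, Cct2 and Cct6a (3 of 9, 12.4% of all) and the E box in none (7.15% of all). These matches are letters in a window and not sites shown to be bound.

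**Figure D1:**
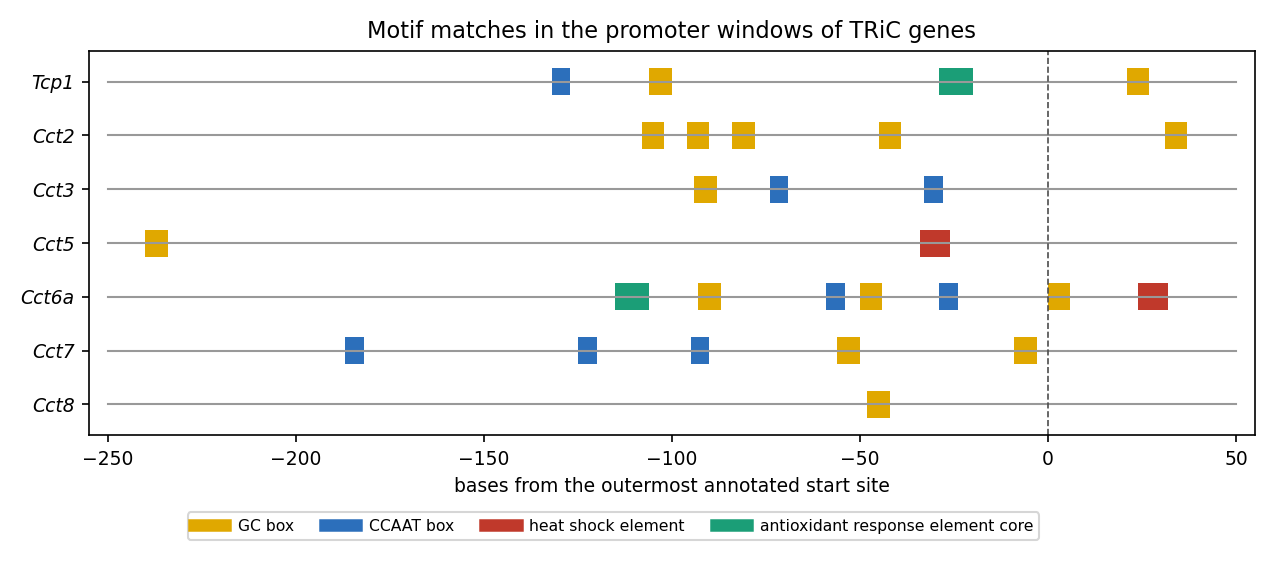
Motif matches in the promoter windows of 7 TRiC genes, drawn in bases from the outermost annotated start site (dashed line, 0). Coloured blocks are matches to the motifs named in the legend, and each gene has at least 1 GC box (Cct5 at the far left end), while Cct7 has 3 CCAAT boxes.

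Across the whole series the arrays differed in technical controls in a way that crosses the 2 doses but not the control group. Both arrays that were low in them were treated, 1 at each dose, so the split is not balanced over the 3 groups. Replicate 1 at 2.5 µM and replicate 1 at 40 µM had hybridisation controls of 10.4 and 10.3 (mean log2 signal) against 10.8 to 11.2 on the other 4 arrays, and poly-A controls of 5.65 and 5.63 against 6.35 to 7.42. These 2 arrays, called the low arrays, also had the widest spread of gene levels, with interquartile ranges of 5.20 and 5.43 against 4.90 to 4.94. Replicate 2 at 40 µM, not a low array, was the highest in hybridisation (11.2) and in poly-A controls (7.42). The arrays of the control group had 10.9 and 10.9 in the former, and 6.35 and 6.39 in the latter. The 2 control arrays were closest to each other, with a median standard deviation per gene of 0.0875, against 0.192 at 2.5 µM and 0.259 at 40 µM. The mark of background was set where 95% of negative control features lie below it, at 9.94 on average (9.80 to 10.06 by array), and 21.3% of genes had a mean above it. All 7 melanocyte lineage markers (Tyr, Tyrp1, Dct, Pmel, Mlana, Mitf and Sox10) were above the mark on every array. None of 22 measured markers of fibroblasts, keratinocytes, leukocytes and endothelium (25 listed) was above it on any array, and their summed linear level was 434 to 619.

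Of the 7 measured subunits, 6 were clearly expressed, with every array above the mark, and their highest array in 5 cases was replicate 1 at 40 µM. Tcp1, the founding subunit (CCT alpha), had log2 levels of 11.24 and 11.39 in control, 12.34 and 11.80 at 2.5 µM, and 13.17 and 11.54 at 40 µM, replicate 1 first. All 4 treated arrays lay above both controls, but the 2 arrays at 40 µM were 1.63 apart, and replicate 2 there was lower than both arrays at 2.5 µM. Cct8 (the theta subunit) was at 13.56 and 13.55 in control, 14.32 and 13.83 at 2.5 µM, and 15.07 and 13.29 at 40 µM. Its 2 arrays at 40 µM thus held its highest and its lowest value. Cct3 (gamma) was at 12.79 and 12.58 in control, 13.41 and 12.92 at 2.5 µM, and 14.05 and 12.90 at 40 µM, all 4 treated arrays being above both controls. Of all genes, 22.2% at 40 µM and 27.1% at 2.5 µM were higher than control without overlap. The share above both controls on all 4 treated arrays, as for Tcp1 and Cct3, was not counted.

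Cct2 (beta), which has also been described as a receptor for the autophagy of protein aggregates, was at 14.83 and 14.81 in control, 15.12 and 15.02 at 2.5 µM, and 15.87 and 14.65 at 40 µM. Cct4 (delta) was at 14.13 and 14.15 in control, 14.49 and 14.04 at 2.5 µM, and 15.32 and 14.09 at 40 µM. For both genes replicate 1 at 40 µM was the highest array, while replicate 2 at 40 µM was below the controls, so the groups overlapped. Cct5 (epsilon), in which inherited mutations cause a sensory neuropathy, was at 15.08 and 15.06 in control, 15.55 and 15.11 at 2.5 µM, and 15.35 and 14.98 at 40 µM. It was the member of the 6 whose highest array was replicate 1 at 2.5 µM.

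Cct7 (eta) went the other way and was the dimmest feature relative to background. It was at 9.49 and 9.59 in control, 8.34 and 8.38 at 2.5 µM, and 8.40 and 9.12 at 40 µM, below the background mark of each array throughout. All 4 treated arrays were below both controls, and the 2 arrays at 2.5 µM, of which only 1 was a low array, were 0.04 apart. Its place among all genes of the same array was the 76.6th and 77.1th percentile in control, the 67.6th and 69.0th at 2.5 µM, and the 66.9th and 74.0th at 40 µM. As the level was within the range of the negative controls, the difference is one between values near background. Of all genes, 26.3% at 40 µM and 25.9% at 2.5 µM were lower than control without overlap. The share below both controls on all 4 treated arrays, as for Cct7, was not counted.

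**Figure D2:**
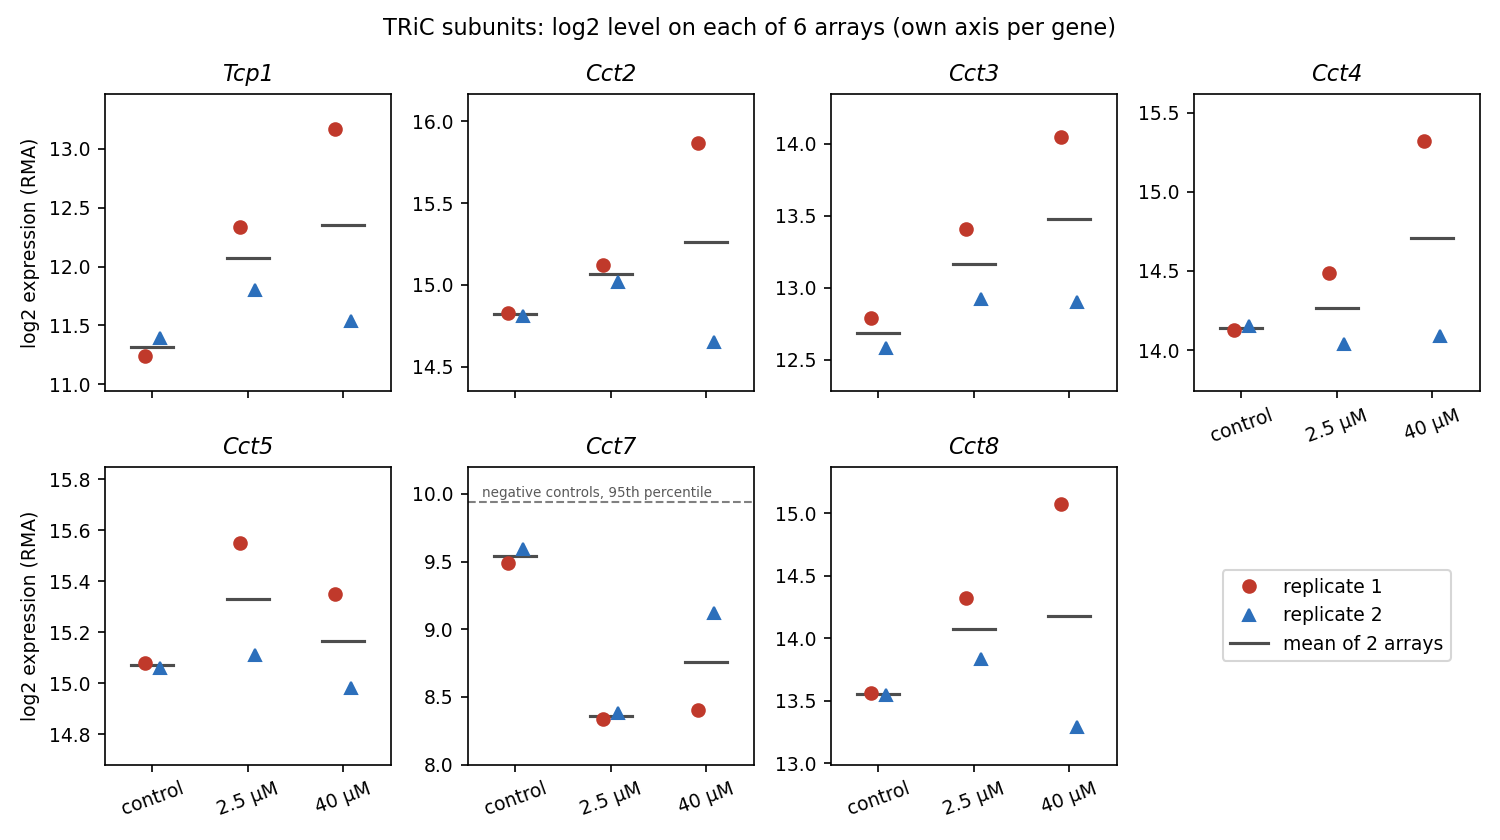
Log2 expression of 7 TRiC subunits on each of the 6 arrays, by group (x axis), with an axis of its own for each gene; circles are replicate 1, triangles replicate 2 and bars the mean of 2 arrays. Replicate 1 at 40 µM stands highest for Tcp1, Cct2, Cct3, Cct4 and Cct8, while Cct7 lies below its controls (9.49 and 9.59) on all 4 treated arrays and below the dashed background mark of 9.94 on all 6.

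At 40 µM the question was whether the subunits differ from control; in such bulk RNA fewer cells of a type and less RNA per cell cannot be told apart. Tcp1 averaged 12.35 ± 1.15 against 11.31 ± 0.11 in the controls (SD, n = 2), a log2 difference of 1.04 with a standard error of 0.49 and a 95% interval from -0.11 to 2.19 (limma, adjusted p = 0.439). The differences of Cct3, Cct8, Cct4 and Cct2 were 0.78, 0.62, 0.56 and 0.44, with intervals from -0.09 to 1.66, from -0.59 to 1.84, from -0.33 to 1.46 and from -0.40 to 1.29. Cct5 differed by 0.10, with an interval from -0.41 to 0.60, and its sign turned after quantile normalization (-0.01). Cct7 averaged 8.76 ± 0.51 against 9.54 ± 0.07 (SD, n = 2), a difference of -0.78 with an interval from -1.42 to -0.15 (limma, adjusted p = 0.368).

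At 40 µM no subunit passed the threshold of 0.05 over all genes (0 of 7; limma, smallest adjusted p of a member 0.368), and 0% of the 19505 genes did. At an unadjusted p under 0.05, 1 of 7 members was past it, Cct7 as lower (limma), beside 6.86% of all genes in that direction and 12% in either. The arrays of the 2 groups did not overlap for Tcp1 and Cct3 (higher, as for 22.2% of all genes) and for Cct7 (lower, as for 26.3%). The median difference was 0.56 over the 7 members, -0.01 over all genes and 0.05 over the 4147 genes above the background mark.

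The value at 40 µM depended on which array was kept. With replicate 1 alone at that dose the median of the members was 1.18 and 6 of 7 were past the threshold, Tcp1, Cct2, Cct3, Cct4 and Cct8 as higher and Cct7 as lower, beside 11.5% of all genes (the spread of the single array is taken from the other groups). With replicate 2 alone the median was -0.09, and none passed, Tcp1 and Cct3 being the 2 members still above control, by 0.22 and 0.21. With the split between the low and the other arrays as a block, the median was 0.12, with Tcp1 at 0.49, Cct2 at 0.12, Cct3 at 0.38, Cct4 at 0.14, Cct5 at -0.11, Cct7 at -0.59 and Cct8 at 0.06, and none passed. Without both low arrays each dose has a single array and the only spread, 1 residual degree of freedom, is that of the controls, the group whose arrays were closest. Calls of that fit (Cct7 and Cct8 as lower by 0.42 and 0.27, beside 19.2% of all genes) are therefore no test of dose. No array of the control group is low, so the block is informed by the treated arrays only. How far the technical difference between the arrays contributes was not tested.

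For 2.5 µM the same controls were used as for 40 µM. Tcp1 averaged 12.07 ± 0.38 (SD, n = 2) and differed by 0.76 with an interval from -0.39 to 1.91 (limma, adjusted p = 0.632). Cct8, Cct3, Cct5, Cct2 and Cct4 differed by 0.52, 0.48, 0.26, 0.25 and 0.12, each with an interval that spans 0. With the array split as a block, Cct2, Cct4 and Cct8 turned to -0.08, -0.30 and -0.05, and the median of the members from 0.26 to -0.05. In the fit without the block, the lowest bound among these 5 was -0.77, for Cct4, and the highest 1.74, for Cct8. Cct7, at 8.36 ± 0.03 (SD, n = 2), lay below control by a log2 difference of -1.18, with a standard error of 0.27 and an interval from -1.82 to -0.55 (limma, adjusted p = 0.479). Both groups are below the background mark, so this is a difference between values near background and no fold is given.

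Here too 0 of 7 members passed over all genes, as did 0% of genes (limma, smallest adjusted p 0.479). Cct7 was again the 1 member past an unadjusted p under 0.05, as lower, beside 5.38% of all genes in that direction and 9.62% in either. The arrays did not overlap for 5 members that were higher (Tcp1, Cct2, Cct3, Cct5 and Cct8; 27.1% of all genes) and for Cct7, which was lower (25.9%). Replicate 2 at 2.5 µM is not a low array, and on it Tcp1, Cct8, Cct3 and Cct2 lay 0.49, 0.28, 0.24 and 0.20 above the control mean, Cct5 was 0.04 above and Cct4 0.10 below it. The difference of Cct7 from the control mean on the 2 arrays was -1.20 and -1.16, nearly the same on the low array and the other. Without both low arrays Cct7, Tcp1 and Cct8 were called at -1.16, 0.49 and 0.28, beside 20.5% of all genes, again against the spread of the controls alone and so not as a test of dose.

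**Figure D3:**
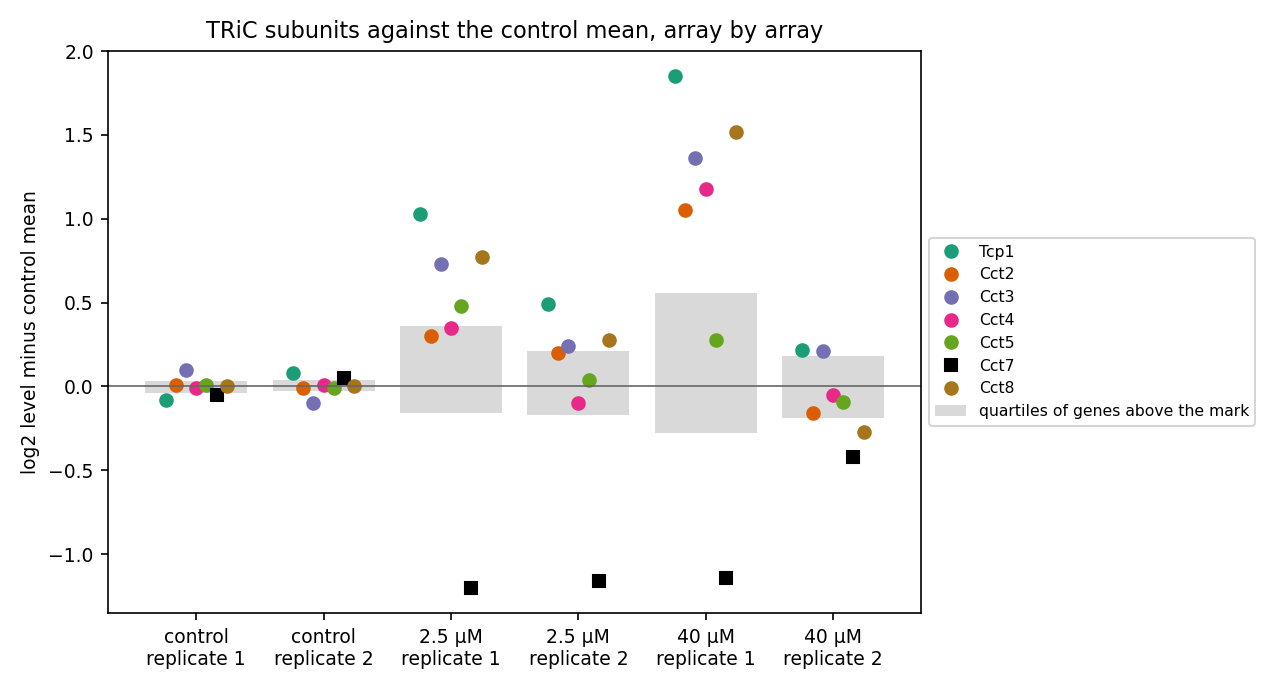
Log2 level minus the control mean for each subunit (points) on each of the 6 arrays (x axis); grey bars span the lower to the upper quartile of the 4147 genes above the background mark. On 40 µM replicate 1, Tcp1, Cct8, Cct3, Cct4 and Cct2 lie 1.05 to 1.85 above control, on 40 µM replicate 2 all but Tcp1 and Cct3 lie below it, and Cct7 (squares) is below control on every treated array.

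Array by array, the 6 expressed subunits had a median of 0.60 and 0.22 above the control mean on replicates 1 and 2 at 2.5 µM, and of 1.27 and -0.07 at 40 µM. The genes above the background mark had medians of 0.08, 0.03, 0.08 and -0.01 on the same arrays, with interquartile ranges from -0.16 to 0.36, from -0.17 to 0.21, from -0.28 to 0.56 and from -0.19 to 0.18. On replicate 1 at 40 µM, 8.54% of these genes lay at least as far above control as the median of the 6, and on replicate 1 at 2.5 µM 12.8% did. On the replicate 2 arrays the shares were 58.7% at 40 µM and 24.1% at 2.5 µM. For Cct7, the genes below the mark give the setting: their medians were -0.02, 0.00, -0.07 and -0.01, and their lower quartiles were -0.32, -0.27, -0.41 and -0.28, all nearer to 0 than Cct7.

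The comparison of 40 µM with 2.5 µM asked whether the doses differ. The differences ran from -0.16 (Cct5) to 0.44 (Cct4), with Tcp1, Cct2, Cct3, Cct7 and Cct8 at 0.28, 0.19, 0.30, 0.40 and 0.10. Every interval spanned 0, the widest being that of Cct8, from -1.11 to 1.32, and the narrowest that of Cct5, from -0.67 to 0.34, which does not show that the doses act alike. None of the 7 passed (0% of all genes; limma, smallest adjusted p of a member 0.870), and none was past an unadjusted p under 0.05, where 5.61% of genes were. The arrays did not overlap for Cct7 (higher at 40 µM, as for 12.4% of genes) and for no member that was lower (16.3% of genes).

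Between the 2 replicate numbers the dose difference changed sign for Tcp1, Cct2, Cct3 and Cct8, and kept it for Cct4, Cct5 and Cct7. Between the 2 low arrays, 40 µM minus 2.5 µM was 0.83 for Tcp1 and Cct4, 0.75 for Cct2 and Cct8, 0.63 for Cct3, 0.06 for Cct7 and -0.20 for Cct5. Between the 2 arrays of replicate 2 it was -0.27 for Tcp1, -0.36 for Cct2, -0.03 for Cct3, 0.04 for Cct4, -0.12 for Cct5 and -0.54 for Cct8, and 0.74 for Cct7. Genes above the mark had medians of 0.04 and -0.04 in these 2 pairs. Each of these pairs sets a single array against a single array, so both give values and no test of dose.

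**Figure D4:**
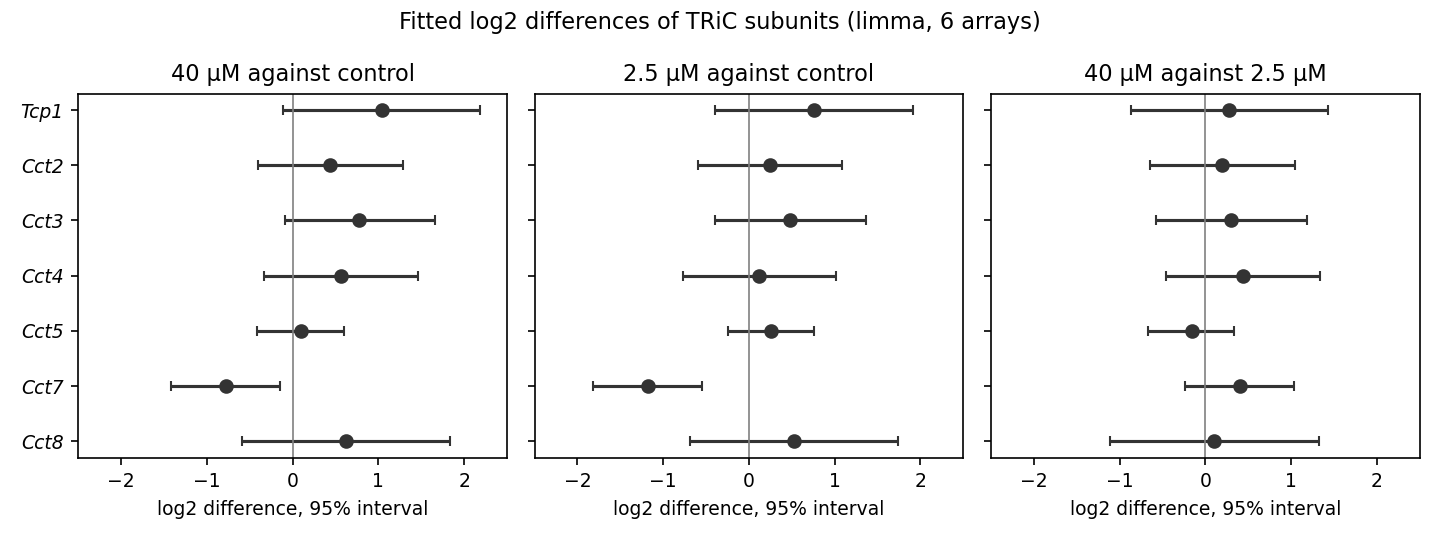
Fitted log2 differences (points) with 95% intervals (bars) of the 7 subunits in the 3 comparisons, from limma on 6 arrays. The interval lies wholly below 0 for Cct7 at 40 µM (-1.42 to -0.15) and at 2.5 µM (-1.82 to -0.55) against control, and all other intervals span 0.

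Across the arrays the 6 expressed subunits varied together. Over the 15 pairs among them Pearson's r across the 6 arrays was 0.627 to 0.977, with a median of 0.938. Without replicate 1 at 40 µM it was 0.618 to 0.963, with a median of 0.831. On the 4 arrays other than the low arrays it was spread from -0.911 to 0.997 with a median of 0.161. The likeness was thus not seen without both low arrays. The arrays left include both controls, which lay close together, so r has little range there. Cct5 had the lowest values among the 6 (0.627 with Cct4 to 0.779 with Cct8). Cct7 ran against them, with r from -0.778 to -0.504. These are descriptions over 6 arrays that share normalization and group.

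By the highest r with the mean centred level of the 7 members across the 6 arrays, among 4141 other genes above the mark, the genes most like them were B2m, Chchd10, Psmc6, Arf4 and Arl1 (r = 0.9982, 0.9981, 0.9978, 0.9973 and 0.9970). B2m encodes the light chain of class I antigen-presenting molecules, Chchd10 a mitochondrial intermembrane protein, Psmc6 an ATPase subunit of the proteasome, and Arf4 and Arl1 small GTPases of the Golgi. B2m, which is also on the housekeeping list, was at 13.18 and 13.12 in control, 14.21 and 12.99 at 2.5 µM, and 15.69 and 12.87 at 40 µM. Its 2 high arrays were the low arrays, and on both replicate 2 arrays it was below its controls. As many as 684 of the 4141 genes (16.5%) had r above 0.9.

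Among the partners of the chaperonin, 61 of 66 genes on 9 lists were measured, and none passed over all genes in any of the 3 comparisons. At an unadjusted p under 0.05, 5 were higher and 1 lower at 40 µM, 3 and 2 at 2.5 µM, and 2 and 0 between the doses (limma), beside 12%, 9.62% and 5.61% of all genes in either direction. The 6 prefoldin subunits had a median difference of 0.66 at 40 µM and 0.30 at 2.5 µM, from -0.05 to 0.94 at 40 µM, with 5 of 6 positive. Their median against control was 1.38 and -0.07 on replicates 1 and 2 at 40 µM, and 0.67 and -0.09 at 2.5 µM. It was thus above control on the low arrays only. The median of the chaperonin was 1.18 and -0.09 on the same arrays at 40 µM, and 0.48 and 0.20 at 2.5 µM. That median was thus above control on replicate 2 at 2.5 µM too. The prefoldin member with the smallest p at 40 µM was Pfdn4, whose mean is below the mark, at 8.74 and 8.56 in control and 10.06 and 8.91 at 40 µM, a difference of 0.84 with a standard error of 0.42.

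The 3 prefoldin-like subunits had medians of 0.69 and 0.63 at 40 µM and 2.5 µM. Pdrg1, which belongs to a prefoldin-like complex, was at 8.26 and 8.45 in control, 9.33 and 9.13 at 2.5 µM, and 9.38 and 8.71 at 40 µM, with differences of 0.69 and 0.88 at the higher and lower dose (limma, adjusted p = 0.395 and 0.479). All 4 treated arrays were above both controls, at levels below the background mark. How many of all genes share this on all 4 arrays was not counted. At 40 µM 22.2% of genes were higher without overlap, and at 2.5 µM 27.1%. Of the 4 phosducin-like cofactors, with a median of 0.31 at 40 µM, Pdcl2 had the smallest p, but at 5.92 and 5.63 in control and 4.69 and 5.22 at 40 µM it was below the median of the negative controls (5.98 to 6.10).

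The 7 tubulin folding cofactors had a median of 0.14 at 40 µM and 0.30 at 2.5 µM. Tbcd, which takes up beta-tubulin, was at 11.07 and 11.03 in control, 11.47 and 11.65 at 2.5 µM, and 12.06 and 11.43 at 40 µM. Its treated arrays were all above both controls and above the mark, and at 40 µM it differed by 0.69 with a standard error of 0.25 (limma, adjusted p = 0.373). Higher than control without overlap were 22.2% of all genes at 40 µM and 27.1% at 2.5 µM. The share at both doses together was not counted.

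Among the substrates, the tubulins went both ways around a median near 0. Actb, the abundant actin of the cytoskeleton, was at 19.37 and 19.42 in control, 19.25 and 19.21 at 2.5 µM, and 19.11 and 19.31 at 40 µM, with intervals from -0.52 to 0.14 and from -0.49 to 0.16 at the higher and lower dose. It lay near the top of the scale (highest deposited value 19.9), where saturation was not tested. The 13 tubulins had a median of 0.03 at 40 µM, with differences from -0.31 to 0.61, and of -0.06 at 2.5 µM, from -0.66 to 0.60. At an unadjusted p under 0.05, 2 were higher at 40 µM, and 1 was higher and 2 were lower at 2.5 µM (limma). Of all genes, 12% at 40 µM and 9.62% at 2.5 µM were past it in either direction. Of the 13 tubulins, 8 had a mean above the mark. Tuba1b, Tuba1c and Tubb5 averaged 17.68, 18.23 and 17.58, above 16, where saturation was not tested either. On replicate 1 at 40 µM the median of the 13 tubulins was 0.04, where the chaperonin was at 1.18. Tuba1a had the smallest p among them, at 13.26 and 13.38 in control and 13.73 and 13.82 at 40 µM, a difference of 0.45 with a standard error of 0.17 (limma, adjusted p = 0.389). The 11 other known substrates had a median of 0.21 at 40 µM, and Vhl had the smallest p. This tumour suppressor, which recognises the hypoxia factor, was at 10.03 and 9.92 in control, 10.35 and 10.21 at 2.5 µM, and 10.43 and 10.29 at 40 µM, a difference of 0.39 with a standard error of 0.19.

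Genes of the heat shock response had a median of 0.04 at 40 µM and 0.09 at 2.5 µM over 9 measured of 12 listed. Only 4 of the 9 had a mean above the background mark. Hsf1, Hspa8 and Hsp90ab1 were not found among the features with exactly 1 gene symbol. Hsph1, a cochaperone of HSP70, was at 9.83 and 9.76 in control, 10.28 and 10.46 at 2.5 µM, and 10.98 and 10.32 at 40 µM, a difference of 0.86 with a standard error of 0.26 (limma, adjusted p = 0.349). Its treated arrays were all above both controls. Higher without overlap were 22.2% of all genes at 40 µM and 27.1% at 2.5 µM, and the share at both doses together was not counted. The other chaperonins had a median of 0.11 over 7 genes at 40 µM, of which 2 had a mean above the mark. Mkks, a chaperonin-like protein of Bardet-Biedl syndrome, had the smallest p. It was at 8.63 and 8.48 in control, 9.94 and 8.97 at 2.5 µM, and 10.25 and 8.75 at 40 µM, high on the low arrays. Named here after their values were seen, Hspd1 and Hspe1, the mitochondrial chaperonin and its lid, differed by 0.20 and 0.19 with standard errors of 0.21 and 0.40 at 40 µM, and Cct6b, the testis form of the zeta subunit, was at 4.37 to 5.04, below the negative controls' median. Housekeeping genes, 10 of 11 measured, had medians of 0.59 and -0.06 on replicates 1 and 2 at 40 µM and 0.39 and -0.03 at 2.5 µM. Their median was thus high on the low arrays too, but the genes differed. On replicate 1 at 40 µM they ran from -0.01 (Sdha) to 3.05 (Hprt) against the control mean, with Gapdh at 0.08. The part of this in the values of the chaperonin was not tested.

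**Figure D5:**
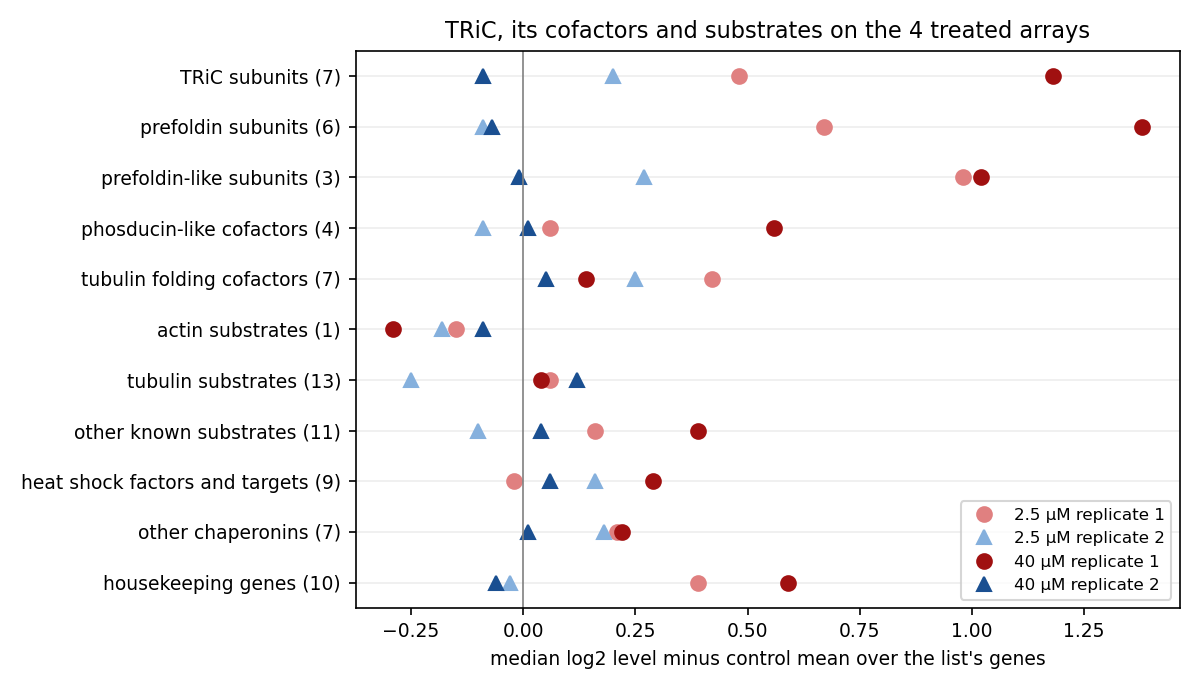
Median log2 level minus control mean over the genes of each list (number measured in brackets) on the 4 treated arrays; circles are replicate 1 (the low arrays) and triangles replicate 2, light at 2.5 µM and dark at 40 µM. The chaperonin and prefoldin stand at 1.18 and 1.38 on 40 µM replicate 1 and at -0.09 and -0.07 on replicate 2, while the median of the tubulins stays between -0.25 and 0.12.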

How the data were processed

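The authors deposited log2 expression values, 1 column per array, and the submitters' processing notes name RMA together with Transcriptome Analysis Console and Affymetrix Expression Console, but no version. RMA removes differences in total signal between arrays. Values above 16, the log2 maximum of a 16-bit image (259 to 269 features per array), show a further step that the sources used here do not give, so folds are on the deposited scale. The genome build was not given either. The description fields disagree with the other labels on the treated arrays: replicate 1 at 2.5 µM is described as treated with medium, and the other 3 as APC 50%. Titles, source names and treatment labels, which agree on all arrays, were followed, so the groups rest on them. Of 28846 features, 19572 had exactly 1 gene symbol in the platform annotation, and the feature with the highest mean stood for a gene, for 19505 genes in all, unfiltered by level. Other features were left out. Precision is limited by the number of arrays.

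Group means of all 6 arrays were fitted with limma 3.58.1 in R 4.3.3 (no covariates, variance prior following the level, 3 residual degrees of freedom, 4.11 from the prior). P-values are two-sided and Benjamini-Hochberg adjusted over the 19505 genes, with 0.05 as threshold, and the script was tested on simulated data. The 7 members and genes of the lists were named by rule: all members, in each partner list the gene with the smallest p at 40 µM and any gene past the threshold, and the 5 genes most correlated with the members. The members and lists were chosen with earlier results of these data known. Lists were described by counts and medians, without set tests. Alternatives covered the replicate number as a block, normalization, filters on dim genes, features, the variance prior, array weights, the groups fitted, the low arrays, a ceiling of 16 and each array left out.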

Additional observations from a re-analysis of the deposited data

How the results depend on the processing

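Of the 18 alternatives, those on the variance prior, array weights, features, filters, the ceiling at 16, the groups fitted, centring and the replicate block kept every member's direction and gave no call; the filter at the background mark has no value for Cct7. With the replicate number as a block the median member difference stayed 0.56, 0.26 and 0.28 (40 µM and 2.5 µM against control, 40 µM against 2.5 µM) with 0 members called. No label ties equal numbers, and same-numbered deviations correlated at -0.00452 and -0.0121 with the controls and 0.386 between the doses. Quantile normalization turned Cct5 at 40 µM against control to -0.01. With the array split as a block, Cct5 at 40 µM turned to -0.11, Cct2, Cct4 and Cct8 at 2.5 µM to -0.08, -0.30 and -0.05, the median member difference at 2.5 µM to -0.05 and that at 40 µM from 0.56 to 0.12. Without both low arrays, members called were 2, 3 and 3 in the 3 comparisons, beside 19.2%, 20.5% and 15.2% of all genes. The median at 40 µM against control was then -0.09 and between the doses -0.12. That fit has single arrays at each dose and takes its spread from the controls alone, so its calls are no test of dose. In it Cct2, Cct4, Cct5 and Cct8 at 40 µM turned to -0.16, -0.05, -0.09 and -0.27, Cct4 at 2.5 µM to -0.10, and Tcp1, Cct2, Cct3 and Cct8 between the doses to -0.27, -0.36, -0.03 and -0.54. The cause was not tested. With each array left out in turn, members called at 40 µM against control ranged from 0 to 6 and the median from -0.09 to 1.18. The 6 calls came with replicate 1 as the only array at 40 µM, beside 11.5% of all genes, so they rest on a single array. With an array left out, the median ranged from 0.20 to 0.48 at 2.5 µM, and between the doses from -0.34 to 0.88. In the same fits Cct2, Cct4, Cct5 and Cct8 at 40 µM against control ranged from -0.16 to 1.05, -0.05 to 1.18, -0.09 to 0.28 and -0.27 to 1.52, and Cct4 at 2.5 µM from -0.10 to 0.35. Between the doses Tcp1, Cct2, Cct3, Cct4, Cct5 and Cct8 ranged from -0.54 to 1.09, -0.41 to 0.80, -0.27 to 0.88, -0.18 to 1.06, -0.38 to 0.06 and -0.79 to 0.99. Cct7 stayed lower than control under every alternative that holds it, from -1.14 to -0.42 at 40 µM and from -1.23 to -1.13 at 2.5 µM with an array left out.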
